A study of Mus musculus with 3 samples.

Results

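The collagen genes were read from 3 microarrays of mouse epidermal RNA, 1 array per genotype. A gene was taken where its symbol was Col, a number, the letter a and a number, which gave 43 genes of the 24570 with a symbol. Col17a1, a keratinocyte adhesion molecule of hemidesmosomes, was left out. All 43 had a value on every array. They comprised 11 fibrillar chains, 6 basement membrane network chains, 6 beaded filament chains, 9 fibril-associated chains, 3 short-chain network chains, 3 transmembrane chains, 2 multiplexins, the anchoring fibril chain Col7a1 and 2 others.

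The cFLIP KO mice were K14CreERtam cFLIP fl/fl and kept TNF. The cFLIP KO/TNF KO mice were TNF-/- cFLIP fl/fl K14CreERtam. The TNF KO mice were TNF-/- and kept cFLIP, and a Cre transgene is not given for them. The K14 promoter drives the tamoxifen-dependent Cre in keratinocytes, so cFLIP, an inhibitor of caspase-8, was deleted in the epidermis and TNF was missing from all cells. All groups were epilated, received tamoxifen on the back skin and were taken 72 h after the first application. The methods give 3 to 5 days of tamoxifen and 3 to 6 animals in a group, the labels 3 days and 4 animals, and their RNA was pooled before hybridisation. The age of the mice was not given in the sources used here, and no wild-type array was used. cFLIP KO and TNF KO therefore differ in both genes, and what both cFLIP-deficient genotypes share against TNF KO cannot be told apart from what Cre does. Each genotype had a single array, so no replicate check and no test was possible, and "higher" and "lower" describe these arrays.

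Collagens are triple-helical proteins of the extracellular matrix. In skin, dermal fibroblasts assemble types I, III and V into fibrils, and fibril-associated collagens decorate the fibril surface. Type IV forms the sheet of the basement membrane under the epidermis, type VII anchors this sheet to the dermis and type VI forms beaded filaments around cells. Keratinocytes make some of these chains themselves, among them type VII. Most fibrillar collagen of skin is made in the dermis, from which the epidermis was parted here by heat separation. How completely the dermis was removed was not tested.

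The values were log2 signals, and a difference of 1 is 2-fold. Of the 43 genes, 12 were below 4.23, the overall median signal, on every array and are called dim, and 31 were not. Keratinocyte markers were bright on every array. Krt5, a keratin of basal keratinocytes, had a log2 signal of 12.50 in cFLIP KO, 13.02 in cFLIP KO/TNF KO and 12.93 in TNF KO epidermis. Col1a1, Col1a2 and Col3a1 stood in the brightest of 10 equal groups of genes by mean signal, together with Col6a1, Col6a2, Col6a3 and Col12a1. In pooled tissue a lower share of cells of a type and less RNA per cell cannot be told apart, and the same holds for more cells and more RNA. Cflar, which encodes cFLIP, read 6.29 in cFLIP KO, 6.53 in cFLIP KO/TNF KO and 7.00 in TNF KO epidermis. For Tnf it was 5.79, 5.21 and 5.11 in the same order, and where the probes lie relative to the deleted parts was not given in the sources used here.

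Promoter windows are shown for 5 of the collagen genes, from 250 bases before to 50 bases after the start site (RefSeq, GRCm38.p6, 5′ to 3′ on the gene's strand). Capitals mark the CCAAT box, the TATAAA box and the letters GGGCGG, each on either strand. Col1a2 (chr6:4505368-4505667, + strand) and Col3a1 (chr1:45311288-45311587, + strand) are shown as bright fibrillar chains of skin. Col8a2 (chr4:126286544-126286843, + strand) and Col9a2 (chr4:121039316-121039615, + strand) are shown because their signals differed most between genotypes. Col4a2 (chr8:11312555-11312854, + strand) is shown because its window overlaps that of Col4a1 on the other strand.
Col1a2: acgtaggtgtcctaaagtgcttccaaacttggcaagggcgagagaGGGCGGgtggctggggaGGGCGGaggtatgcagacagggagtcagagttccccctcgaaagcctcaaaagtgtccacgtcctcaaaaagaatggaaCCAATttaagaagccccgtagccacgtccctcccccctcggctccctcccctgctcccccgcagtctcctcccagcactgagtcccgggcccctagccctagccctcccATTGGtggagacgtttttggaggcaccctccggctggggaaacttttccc
Col3a1: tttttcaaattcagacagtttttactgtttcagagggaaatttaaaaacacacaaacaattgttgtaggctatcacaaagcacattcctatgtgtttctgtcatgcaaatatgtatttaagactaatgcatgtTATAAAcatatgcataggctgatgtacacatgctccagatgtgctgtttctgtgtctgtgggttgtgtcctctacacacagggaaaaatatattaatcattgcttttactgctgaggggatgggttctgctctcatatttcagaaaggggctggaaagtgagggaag
Col8a2: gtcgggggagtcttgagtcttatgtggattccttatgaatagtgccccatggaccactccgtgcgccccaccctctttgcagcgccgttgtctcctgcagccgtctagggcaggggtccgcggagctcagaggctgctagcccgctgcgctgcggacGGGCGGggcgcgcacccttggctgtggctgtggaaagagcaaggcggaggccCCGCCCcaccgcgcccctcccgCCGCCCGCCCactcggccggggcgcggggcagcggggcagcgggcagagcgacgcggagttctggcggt
Col9a2: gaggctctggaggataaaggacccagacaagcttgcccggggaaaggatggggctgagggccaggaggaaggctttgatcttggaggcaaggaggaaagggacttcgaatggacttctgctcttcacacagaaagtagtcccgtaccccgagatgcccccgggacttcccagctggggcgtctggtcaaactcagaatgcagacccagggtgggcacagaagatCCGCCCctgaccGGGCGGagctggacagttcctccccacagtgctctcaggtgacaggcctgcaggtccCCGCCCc
Col4a2: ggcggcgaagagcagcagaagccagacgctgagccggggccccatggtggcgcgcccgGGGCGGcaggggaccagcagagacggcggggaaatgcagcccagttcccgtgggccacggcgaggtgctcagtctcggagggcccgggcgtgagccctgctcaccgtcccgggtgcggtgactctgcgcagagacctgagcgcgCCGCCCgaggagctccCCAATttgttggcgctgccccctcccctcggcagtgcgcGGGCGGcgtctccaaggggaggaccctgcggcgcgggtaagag

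The RefSeq table held a window for 34 of the 43 genes and 32851 windows in all. Motifs were counted by their letters on both strands. Each collagen gene was counted once, by its first window, whereas the background was counted over every window and not once per gene. GGGCGG stood in 22 of the 34 collagen windows, or 64.7%, and in 35.7% of all windows. CCAAT stood in 32.4% and 37.4%, TATAAA in 11.8% and 13.6%, TGANTCA in 2.94% and 7.81%, and a loose NF-kappaB consensus, which can overlap GGGCGG, in 76.5% and 50.8%. The window of Col3a1 held TATAAA and no GGGCGG, whereas those of Col8a2 and Col9a2 held GGGCGG on both strands and no CCAAT. These matches describe letters in the windows and nothing about binding.

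The type I chains are the main collagen of dermal fibrils, where 2 products of Col1a1 combine with 1 of Col1a2. Col1a1 had a log2 signal of 11.68 in cFLIP KO, 11.33 in cFLIP KO/TNF KO and 11.18 in TNF KO epidermis, a difference of 0.50 between cFLIP KO and TNF KO, or 1.41-fold. Col1a2 had the same signal, 10.70, in both cFLIP-deficient genotypes, against 10.57 in TNF KO epidermis. As deposited both chains were thus lowest in TNF KO epidermis, and Col1a1 alone of the pair differed between the cFLIP-deficient genotypes. Col3a1, whose product forms the type III fibrils of elastic tissues, had a log2 signal of 10.75 in cFLIP KO, 10.92 in cFLIP KO/TNF KO and 10.58 in TNF KO epidermis. It was the collagen gene with the largest difference between cFLIP KO/TNF KO and TNF KO epidermis, 0.34.

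The type V chains start and limit fibril growth. Col5a1 had log2 signals of 7.61 in cFLIP KO, 7.60 in cFLIP KO/TNF KO and 7.37 in TNF KO epidermis. Col5a3 had 6.97, 6.66 and 6.44 in the same order. Col5a2, which lies beside Col3a1 on chromosome 1, had 6.51 in cFLIP KO epidermis and 6.34 on both other arrays. The fibrillar chains best known from cartilage were read at lower signals. Col2a1 had a log2 signal of 5.94 in cFLIP KO epidermis and 5.09 in both cFLIP KO/TNF KO and TNF KO epidermis, a difference of 0.85. Col27a1 had 6.01 in cFLIP KO epidermis and 5.53 on both other arrays, and Col24a1 had 4.95 against 4.58. Col11a1 read 3.96 on all 3 arrays, and Col11a2 lay between 4.59 and 4.62.

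**Figure D1:**
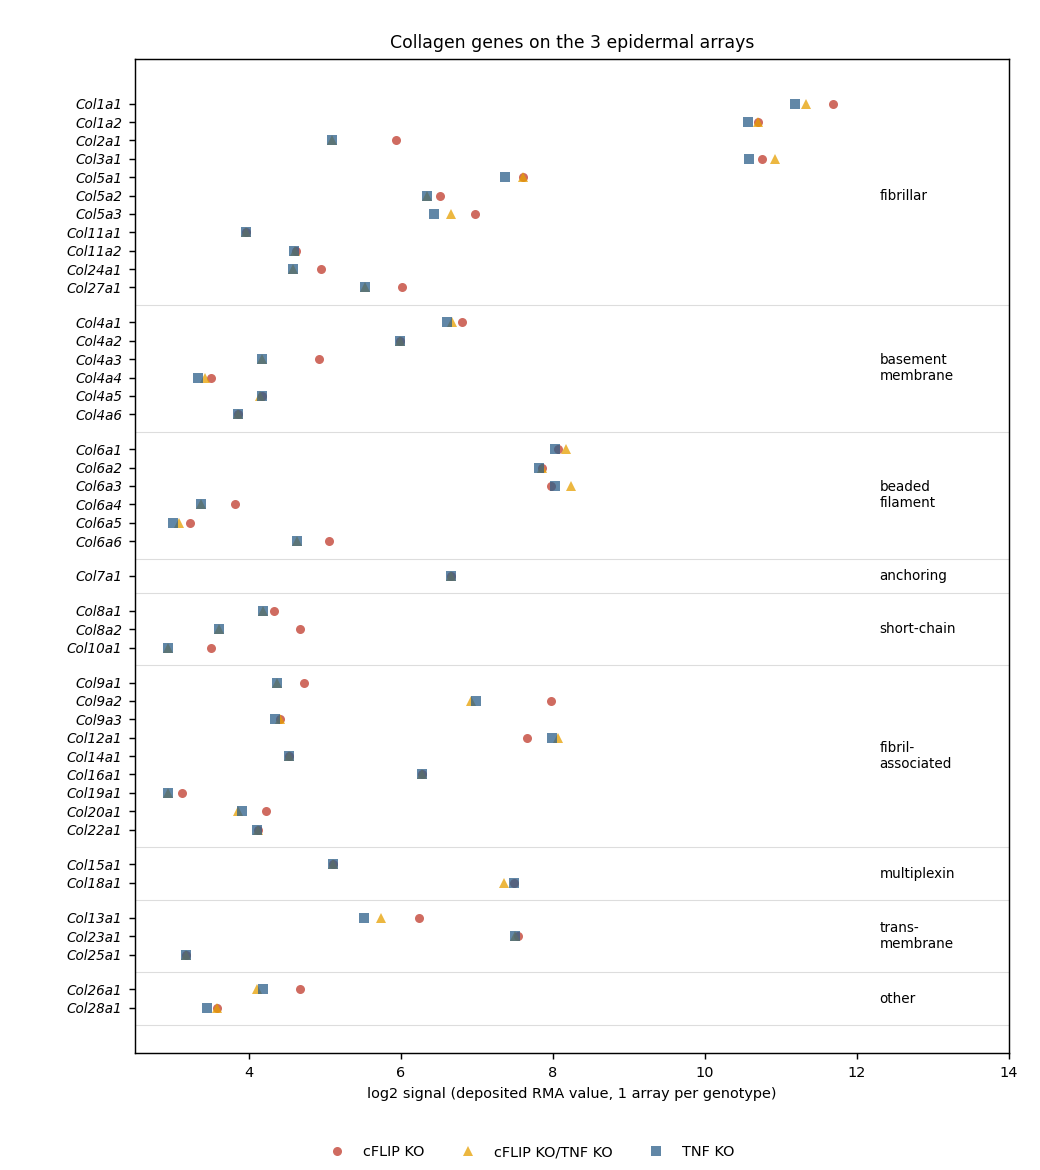
Log2 signal of each of the 43 collagen genes (x axis) on the cFLIP KO (circles), cFLIP KO/TNF KO (triangles) and TNF KO (squares) arrays, 1 array per genotype, grouped by class. Col1a1, Col1a2 and Col3a1 lie above 10.5 on every array, and 8 genes have the same value on all 3.

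Basement membrane network chains had a lower median difference than the fibrillar ones in cFLIP KO minus TNF KO, 0.09 against 0.24. However, 3 of these 6 chains were dim, against 1 of the 11 fibrillar ones. Col4a1 and Col4a2, the pair that builds most type IV collagen, start 21 bases apart on opposite strands, and their windows share 78 bases. Col4a1 nevertheless had log2 signals of 6.81 in cFLIP KO, 6.67 in cFLIP KO/TNF KO and 6.60 in TNF KO epidermis, whereas Col4a2 read 5.99 on all 3 arrays. Col4a3, a chain known from the kidney filter, had 4.92 in cFLIP KO epidermis and 4.17 on both other arrays, a difference of 0.76. Its neighbour Col4a4 was dim, with 3.50, 3.42 and 3.33 in cFLIP KO, cFLIP KO/TNF KO and TNF KO epidermis. Col4a5 and Col4a6, which belong to the epidermal basement membrane, were also dim and differed by at most 0.03 between any 2 arrays. Col7a1, the anchoring fibril chain, had a log2 signal of 6.66 on all 3 arrays, and Col16a1, a fibril-associated chain found at the dermal-epidermal junction, had 6.28 on all 3. Col18a1, a basement membrane multiplexin and the source of endostatin, had 7.48 in cFLIP KO, 7.36 in cFLIP KO/TNF KO and 7.48 in TNF KO epidermis, and Col15a1 read 5.10 on all 3.

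Of the main type VI chains, Col6a1 and Col6a3 were lower in cFLIP KO relative to cFLIP KO/TNF KO epidermis as deposited and higher under each of 4 other scalings. Col6a3, the chain that extends the beaded filament, had log2 signals of 7.97 in cFLIP KO, 8.24 in cFLIP KO/TNF KO and 8.02 in TNF KO epidermis. Col6a1 had 8.06, 8.17 and 8.03 in the same order, and Col6a2, its neighbour on chromosome 10, had 7.86, 7.86 and 7.81. All 3 were thus within 0.27 between any 2 arrays. The alternative chains Col6a4 and Col6a6 were dimmer and were higher in cFLIP KO epidermis, where Col6a4 had 3.81 against 3.36 and Col6a6 had 5.05 against 4.62 on both other arrays. Col6a5 had 3.22, 3.08 and 2.99 in cFLIP KO, cFLIP KO/TNF KO and TNF KO epidermis.

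Fibril-associated and short-chain collagens held the members furthest apart. Col9a2, whose product coats cartilage fibrils, had a log2 signal of 7.97 in cFLIP KO, 6.92 in cFLIP KO/TNF KO and 6.99 in TNF KO epidermis. The cFLIP KO signal was 1.97 times that of TNF KO and 2.07 times that of cFLIP KO/TNF KO epidermis. The partner chains of type IX were closer together, with 4.72 against 4.37 on both other arrays for Col9a1 and a range from 4.33 to 4.40 for Col9a3. Col8a2, a network chain of the cornea and vessel wall, had 4.67 in cFLIP KO epidermis and 3.60 in both cFLIP KO/TNF KO and TNF KO epidermis, or 2.10-fold, so that only the cFLIP KO signal was above the 4.23 that marks dim genes. Its partner Col8a1 had 4.33 against 4.18. Col10a1, the chain of hypertrophic cartilage, had 3.50 against 2.93 and was dim throughout.

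Col12a1, which binds fibrils in dense connective tissue, had the lowest cFLIP KO signal relative to both other arrays, with 7.65 in cFLIP KO, 8.06 in cFLIP KO/TNF KO and 7.99 in TNF KO epidermis. The related Col14a1 read 4.53 on all 3 arrays. Col13a1, a transmembrane collagen of cell contacts, had 6.24 in cFLIP KO, 5.74 in cFLIP KO/TNF KO and 5.51 in TNF KO epidermis, a difference of 0.74 between cFLIP KO and TNF KO and of 0.50 between the cFLIP-deficient genotypes. Col23a1, another transmembrane chain, had 7.54 against 7.51 on both other arrays. Col26a1 had 4.66, 4.10 and 4.18 and Col20a1 had 4.22, 3.86 and 3.90 in cFLIP KO, cFLIP KO/TNF KO and TNF KO epidermis. The dim genes Col19a1, Col22a1, Col25a1 and Col28a1 differed by at most 0.19 between any 2 arrays.

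Set against TNF KO epidermis, 1 collagen gene, Col8a2, was higher by 2-fold or more in cFLIP KO epidermis and none was lower by as much. Among all genes, 3.87% were that much higher and 9.2% that much lower, so the share higher was no more than the background and the share lower was below it. Differences ranged from -0.34 for Col12a1 to 1.07 for Col8a2, with a median of 0.17, against a median of 0.00 over all genes. By sign, 31 collagen genes (72.1%) were higher in cFLIP KO, 2 (4.65%) were lower and 10 were equal. Over all genes 46.7% were higher, 30.2% lower and 23.1% equal. The 2 lower ones were Col12a1 and Col6a3, both of which turned higher under lowess and repeated quantile normalization.

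The fibrillar chains had a median difference of 0.24 in this comparison, with 10 of 11 higher and Col11a1 equal. Under the 4 other scalings their median lay between 0.28 with Actb and 0.78 with lowess. Of the 6 basement membrane chains, 3 were higher and 3 equal, with a median of 0.09. The 6 beaded filament chains had a median of 0.14, the 3 short-chain chains of 0.57 and the 9 fibril-associated chains of 0.07. Both multiplexins were equal.

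**Figure D2:**
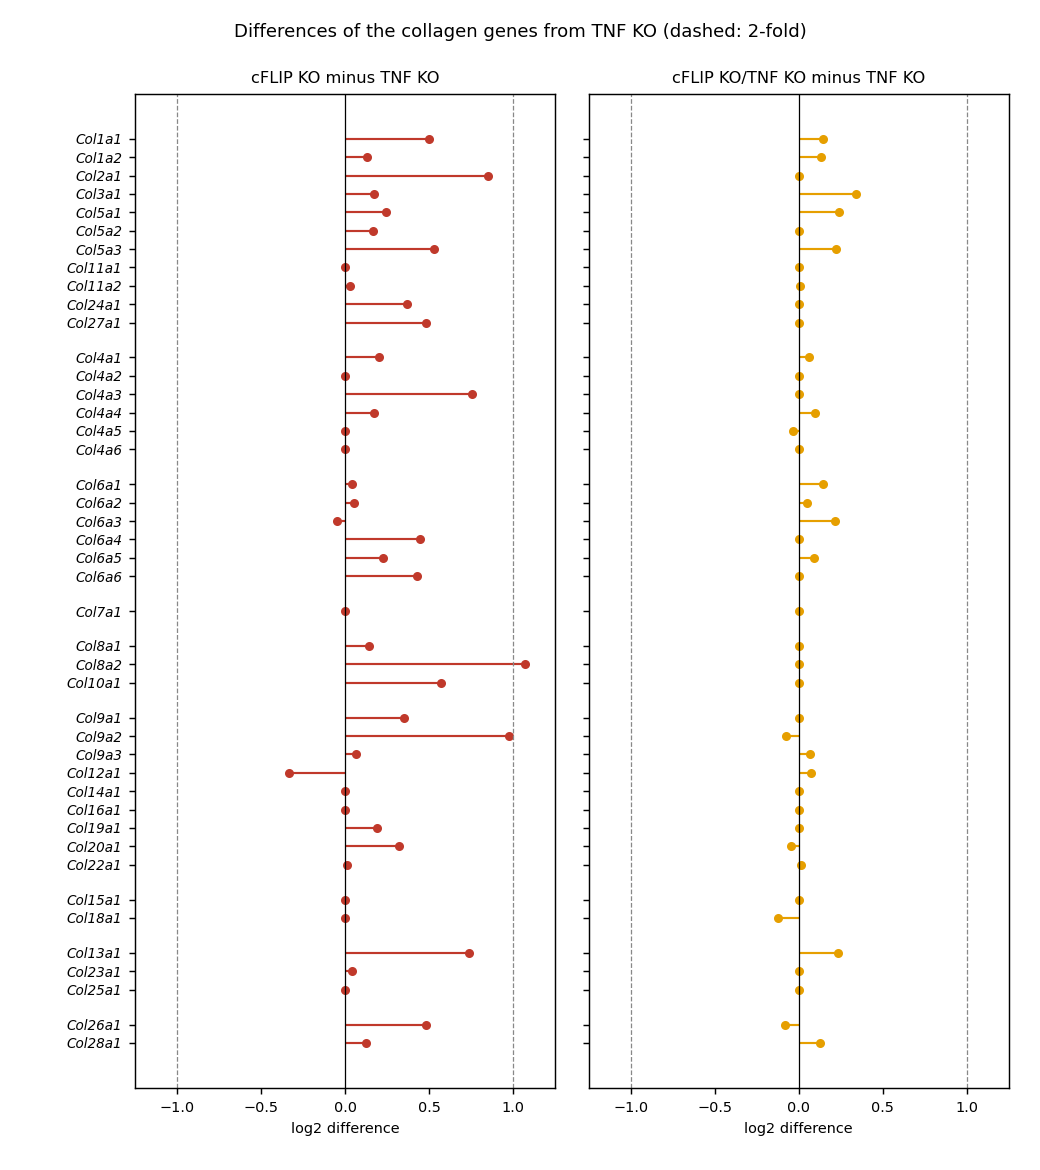
Log2 difference of each collagen gene, cFLIP KO minus TNF KO (left) and cFLIP KO/TNF KO minus TNF KO (right), in the class order of the plot of signals; dashed lines mark 2-fold. On the left most genes lie right of 0 and Col8a2 passes 2-fold, and on the right all lie between -0.12 and 0.34.

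In cFLIP KO/TNF KO relative to TNF KO epidermis, no collagen gene differed by 2-fold in either direction. The background was 0.635% higher and 0.22% lower. The same TNF KO array served both comparisons. Differences ranged from -0.12 for Col18a1 to 0.34 for Col3a1, with a median of 0.00, as over all genes. By sign 17 collagen genes (39.5%) were higher, 5 (11.6%) lower and 21 (48.8%) equal, against 23.1%, 24.5% and 52.4% of all genes. The largest positive differences were 0.34 for Col3a1, 0.24 for Col5a1, 0.23 for Col13a1, 0.22 for Col5a3 and 0.22 for Col6a3. These signs depended on the scaling. With Actb set equal on the arrays, all 43 collagen genes and 98.3% of all genes were lower in cFLIP KO/TNF KO epidermis, and with the mean of 8 reference genes set equal, 34 collagen genes and 91.8% of all genes were.

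Between the cFLIP-deficient genotypes, Col8a2 and Col9a2 were higher in cFLIP KO epidermis by 2-fold or more, which is 4.65% of the collagen genes against 3.29% of all genes. None was lower by as much, against 8.14% of all genes. The median difference was 0.08, with a range from -0.41 for Col12a1 to 1.07 for Col8a2. By sign, 26 were higher, 13 equal and 4 lower in cFLIP KO epidermis, against 44.9%, 23.8% and 31.3% of all genes. The lower ones were Col12a1, Col6a3, Col3a1 and Col6a1, and each of the 4 turned higher under every other scaling, Col12a1 by as little as 0.01 with the reference genes.

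Differences on the cFLIP KO array went with the signal. Although quantile normalization had been applied, the deposited values had an SD over genes of 1.78 on the cFLIP KO, 2.04 on the cFLIP KO/TNF KO and 2.06 on the TNF KO array. With the genes cut into 10 groups by mean signal, the median of cFLIP KO minus TNF KO in the brightest group was -0.80 over all genes and 0.05 over the 7 collagen genes there. In the next group it was -0.58 over all genes and 0.22 over 6 collagen genes. The medians of the collagen genes in these groups were thus above 0 where those of all genes were below it, although Col12a1 was at -0.34. In the group below these the medians were 0.00 for 5 collagen genes and -0.15 for all genes, and in the sixth group from the dimmest 0.36 for 8 collagen genes and 0.10 for all genes. In the fifth group from the dimmest the order was the other way round, with 0.01 for 7 collagen genes and 0.19 for all genes.

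Fitting that trend by lowess and subtracting it moved the collagen genes accordingly. In cFLIP KO minus TNF KO the value for Col1a1 was then 1.28, for Col1a2 0.90, for Col3a1 0.94 and for Col9a2 1.51. Col8a2 was then below 2-fold at 0.85, and at 0.81 after a repeated quantile normalization. Col12a1 and Col6a3, lower as deposited, were then higher, at 0.26 and 0.58. After the trend was subtracted 31 collagen genes lay above 0 and 12 below, against 45.4% and 54.6% of all genes.

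**Figure D3:**
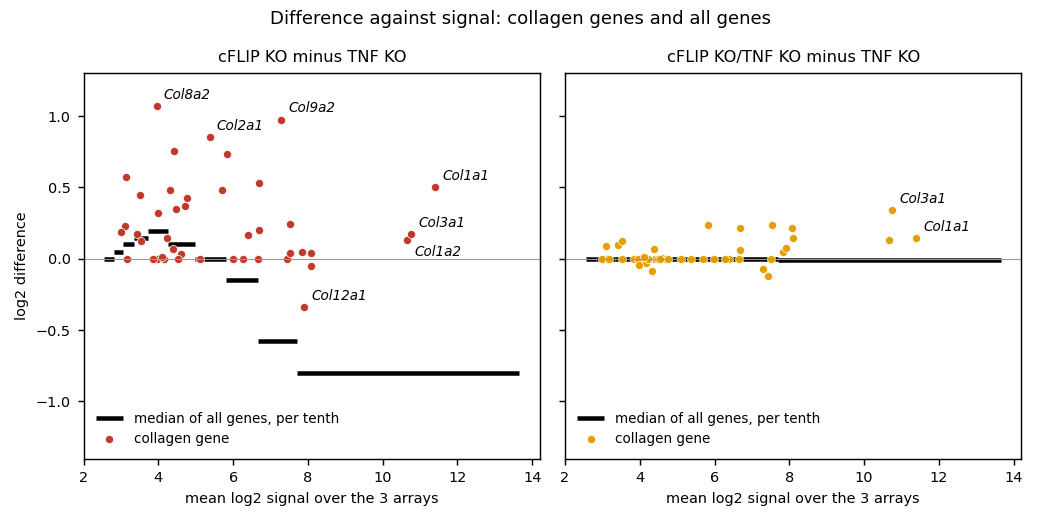
Log2 difference against the mean log2 signal over the 3 arrays for the collagen genes (points) and the median of all genes in each of 10 groups by signal (bars), for cFLIP KO minus TNF KO (left) and cFLIP KO/TNF KO minus TNF KO (right). On the left the bars descend to -0.80 in the brightest group while the 7 collagen genes there have a median of 0.05.

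Many values were equal between arrays. The cFLIP KO/TNF KO and TNF KO arrays gave the same value for 21 of the 43 collagen genes (48.8%) and for 52.4% of all genes, and all 3 arrays agreed for 8 collagen genes (18.6%) and 20.0% of all genes. The 8 were Col11a1, Col4a2, Col4a6, Col7a1, Col14a1, Col16a1, Col15a1 and Col25a1. An equal value means that the summary of the probes returned the same number, and it was not read as a measured lack of difference.

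Of the 43 genes, 15 lie beside another collagen gene, in 8 pairs, and several pairs differed by unequal amounts. Col3a1 and Col5a2 had differences between cFLIP KO and TNF KO of 0.17 each, but between cFLIP KO/TNF KO and TNF KO of 0.34 and 0.00. Col4a4 and Col4a3 had 0.17 and 0.76 in cFLIP KO relative to TNF KO epidermis, and Col6a5 and Col6a4 had 0.23 and 0.45. For Col6a2 and Col6a1 the values were 0.05 and 0.04.

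Summed on the linear scale, the 43 collagen genes had a signal of 9673 in cFLIP KO, 8972 in cFLIP KO/TNF KO and 8047 in TNF KO epidermis. Over the fibrillar chains it was 7291, 6699 and 5858. In both sums the place of cFLIP KO above cFLIP KO/TNF KO epidermis rested on Col1a1, the brightest collagen gene. For basement membrane chains the sum in cFLIP KO was 1.13 times, and in cFLIP KO/TNF KO 1.02 times, that in TNF KO epidermis. Beaded filament chains summed to 808, 866 and 788. These sums are of the values as deposited, and their order can turn with the scaling. The beaded filament sum in cFLIP KO was 0.933 times that in cFLIP KO/TNF KO epidermis as deposited, but 1.38 times with Actb, and also above 1 with the reference genes, set equal. For the fibrillar sum the ratio was 1.09, 1.61 and 1.45 in the same order of settings. Both scalings of sums were added after the values were seen.

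The summed signal of other fibroblast genes did not have the order of the fibrillar sum, as deposited or with Actb or the reference genes set equal. A list of 19 fibroblast genes without collagens summed to 4405 in cFLIP KO, 7296 in cFLIP KO/TNF KO and 4684 in TNF KO epidermis, and none of the 19 was below the median signal on all arrays. In cFLIP KO relative to cFLIP KO/TNF KO epidermis, none was higher by 2-fold and 5 were lower by 2-fold or more, with a median of -0.58, against a median of 0.08 over the collagen genes. Over all genes 3.29% were that much higher and 8.14% that much lower, and without dim genes 5.75% and 14.9%. The median over all genes in this comparison was -0.76 in the brightest group by signal and -0.57 in the next, so that -0.58 was near the values of bright genes. Lum, lumican, a proteoglycan of the fibril surface, had log2 signals of 7.41 in cFLIP KO, 8.60 in cFLIP KO/TNF KO and 7.71 in TNF KO epidermis. Dpt, dermatopontin, had 7.20, 8.74 and 7.89 in the same order. Vim, the intermediate filament protein vimentin, had 10.71, 11.45 and 10.35. These 3 were highest in cFLIP KO/TNF KO epidermis, also under the 4 other scalings. As deposited Col1a2 in cFLIP KO epidermis equalled its cFLIP KO/TNF KO value, Col1a1 was higher in cFLIP KO and Col3a1 was lower. The place of cFLIP KO above cFLIP KO/TNF KO epidermis in the fibrillar sum as deposited rested on Col1a1. Members of the fibroblast list differed in their order. Of the 19 genes as deposited, 4 were highest in cFLIP KO, 11 in cFLIP KO/TNF KO and 2 in TNF KO epidermis, and 2 were tied. Eln, elastin, was among the first, with 6.39, 6.05 and 5.76, whereas Dpp4, a surface peptidase, had 5.48, 6.95 and 7.90 and was highest in TNF KO epidermis. Shares of all genes by highest genotype were not counted, so these counts have no background. With Actb set equal, 13 of the 19 were lower in cFLIP KO/TNF KO relative to TNF KO epidermis. The median of the fibroblast list in cFLIP KO minus TNF KO was -0.20 as deposited and turned to 0.10 with the reference genes and to 0.13 with the lowess trend subtracted. The list median in cFLIP KO minus cFLIP KO/TNF KO was below 0 under each of the 4 other scalings, at -0.02 with Actb, -0.16 with the reference genes, -0.04 with lowess and -0.08 after repeated quantile normalization.

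Genes of fibril-binding partners had their highest sum in cFLIP KO/TNF KO epidermis as deposited. The 15 listed genes, of which Dcn, Dpt and Lum are also in the fibroblast list, summed to 5582 in cFLIP KO, 9154 in cFLIP KO/TNF KO and 6419 in TNF KO epidermis. Postn, periostin, which cross-links matrix with type I collagen, had log2 signals of 9.13 in cFLIP KO, 11.50 in cFLIP KO/TNF KO and 10.74 in TNF KO epidermis. Without Postn, left out after its values were seen, the sums were 5021, 6266 and 4711, and that of cFLIP KO lay above that of TNF KO epidermis. Ogn, osteoglycin, had 4.34 in cFLIP KO, 5.16 in cFLIP KO/TNF KO and 4.34 in TNF KO epidermis. Postn and Ogn were both highest in cFLIP KO/TNF KO epidermis under every scaling run. Thbs1, thrombospondin-1, a matrix protein also released by platelets, ran the other way with 10.02, 8.97 and 8.62. In cFLIP KO relative to cFLIP KO/TNF KO epidermis 1 partner, Thbs1, was higher by 2-fold or more and 4 were lower by as much, against 3.29% and 8.14% of all genes. The median of the partners was -0.28 as deposited, but 0.28 with Actb and 0.14 with the reference genes set equal.

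Summed markers of several other cell types of skin differed between the arrays as deposited. Adipocyte genes, of which none of 8 was below the median signal on all arrays, had a summed signal in cFLIP KO of 0.616 times, and in cFLIP KO/TNF KO of 3.48 times, that in TNF KO epidermis, where it was 487. Fabp4, a fatty acid carrier of fat cells, had log2 signals of 5.75 in cFLIP KO, 9.37 in cFLIP KO/TNF KO and 7.53 in TNF KO epidermis. In the same order of genotypes, skeletal muscle genes (9) summed to 1229, 1096 and 855, endothelial genes (12) to 441, 361 and 331, and pericyte and smooth muscle genes (8) to 562, 571 and 607. Schwann cell genes (5) were close together, with sums of 230, 244 and 229 and a list median of 0.00 in each comparison. The order of the muscle sums rested on Acta1, skeletal muscle actin, without which the 8 others summed to 643, 716 and 606, a sum chosen after the values were seen. Basal keratinocyte genes (12) summed to 18837, 22549 and 21680 and suprabasal ones (9) to 20501, 44697 and 52501, while monocyte and macrophage genes (9) summed to 4602, 2210 and 1250. In that last sum the place of cFLIP KO above cFLIP KO/TNF KO epidermis rested on Cd14, with log2 signals of 11.58, 8.49 and 8.71. In cFLIP KO minus cFLIP KO/TNF KO, 3 of these 9 genes were higher and 6 lower. Their median was -0.13 as deposited, but 0.43 with Actb set equal. The order of the other sums can turn with the scaling too. With Actb set equal, all 12 endothelial and all 12 basal keratinocyte genes were lower in cFLIP KO/TNF KO relative to TNF KO epidermis, as were 98.3% of all genes. The part of these cell types, and of the depth at which the epidermis parted from the dermis, in the collagen signals was not tested.

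**Figure D4:**
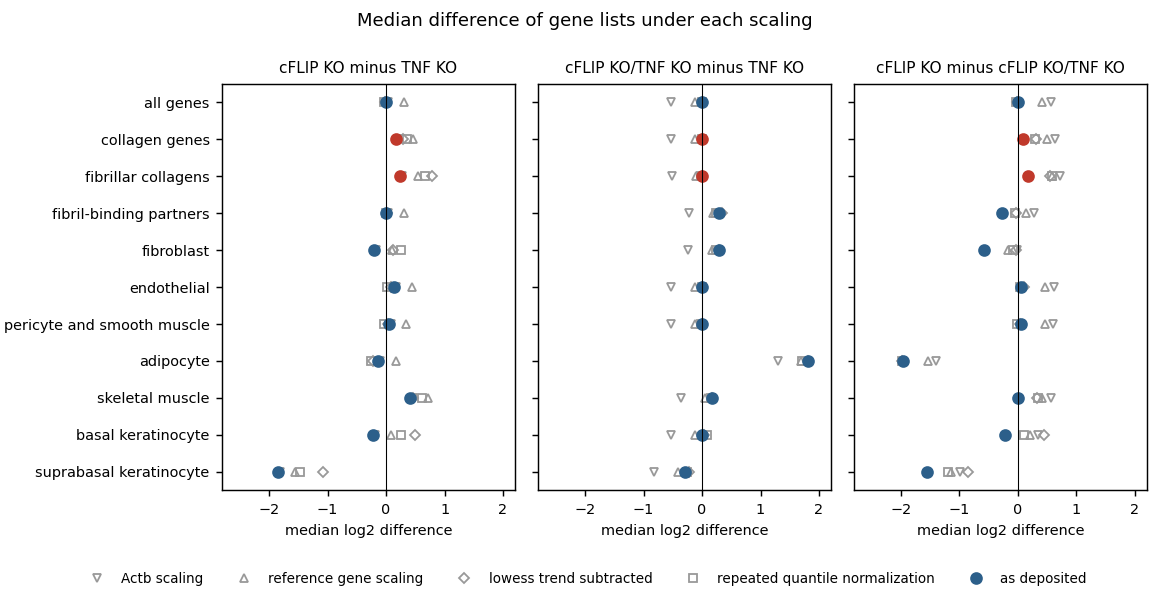
Median log2 difference of gene lists for the 3 comparisons (panels), as deposited (filled circles, collagens in red) and under 4 other scalings (open symbols). In cFLIP KO minus cFLIP KO/TNF KO the fibroblast list lies at -0.58 as deposited and the collagen genes at 0.08, and the adipocyte list lies at -1.96.

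Genes that fold and modify collagen chains in the endoplasmic reticulum held differences in both directions. Of 20 such genes, 1 was higher and 4 were lower by 2-fold or more in cFLIP KO relative to TNF KO epidermis, against 3.87% and 9.2% of all genes. Without dim genes these shares were 6.76% and 16.9%. The list median was -0.08 and turned to 0.22 with the reference genes and to 0.06 with lowess. None passed 2-fold in cFLIP KO/TNF KO epidermis, where 0.635% of all genes were that much higher and 0.22% that much lower. P3h1, a prolyl 3-hydroxylase, had a log2 signal of 6.42 in cFLIP KO epidermis and 5.03 on both other arrays. P3h4, a partner of lysyl hydroxylation, had 5.79 in cFLIP KO epidermis and 7.74 on both other arrays. Mia3, which loads procollagen into transport vesicles, had 5.58 in cFLIP KO, 6.73 in cFLIP KO/TNF KO and 6.82 in TNF KO epidermis. Serpinh1, the collagen chaperone HSP47, had 8.10, 8.57 and 8.16, and so was highest in cFLIP KO/TNF KO epidermis as Col3a1 was, though with Actb set equal it was lower there than in TNF KO epidermis by 0.11.

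Among 13 genes of procollagen processing and cross-linking, Tgm2 was the only one past 2-fold against TNF KO as deposited, and it was higher in both cFLIP-deficient genotypes. Over all genes 3.87% were that much higher and 9.2% that much lower in cFLIP KO epidermis. In cFLIP KO/TNF KO epidermis these shares were 0.635% and 0.22%. Tgm2, a transglutaminase that cross-links matrix proteins and is made by many cells, had log2 signals of 7.79 in cFLIP KO, 7.20 in cFLIP KO/TNF KO and 5.58 in TNF KO epidermis. Pcolce, which speeds the removal of the procollagen end, had 6.48, 6.51 and 6.30. Bmp1, the proteinase it assists, had 6.54 in cFLIP KO, 6.77 in cFLIP KO/TNF KO and 6.77 in TNF KO epidermis. The list median was 0.00 in all 3 comparisons as deposited.

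Collagen-degrading enzymes held larger differences than any collagen gene. Of 9 breakdown and uptake genes, 2 lay 2-fold or more above TNF KO and 1 as far below it in cFLIP KO epidermis, against 3.87% and 9.2% of all genes. In cFLIP KO/TNF KO epidermis 2 lay as far above, against 0.635% of all genes. Mmp13, the main fibril-cutting collagenase of the mouse, had log2 signals of 10.58 in cFLIP KO, 9.70 in cFLIP KO/TNF KO and 7.82 in TNF KO epidermis. Mmp9, which degrades gelatin and type IV collagen, had 8.97, 8.32 and 6.96. Mmp2, a gelatinase of fibroblasts, went the other way in cFLIP KO epidermis, with 7.85, 9.24 and 8.92, and its difference from TNF KO of -1.06 was -0.39 with lowess. Of 9 collagen receptors, Ddr1 and Ddr2 were lower by 2-fold or more in cFLIP KO relative to TNF KO epidermis, at -1.30 and -1.31, against -0.71 and -0.64 with lowess. As deposited 9.2% of all genes were that much lower. Ddr1, the discoidin receptor of epithelia, had 7.09 in cFLIP KO epidermis and 8.39 on both other arrays, and Ddr2, that of fibroblasts, had 7.70, 9.24 and 9.01 in cFLIP KO, cFLIP KO/TNF KO and TNF KO epidermis. Itgb1, the beta chain of the collagen-binding integrins, had 9.46 in both cFLIP-deficient genotypes and 9.26 in TNF KO epidermis.

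Col17a1, set apart as a keratinocyte product, had a log2 signal of 9.91 in cFLIP KO, 10.61 in cFLIP KO/TNF KO and 10.57 in TNF KO epidermis. This transmembrane collagen of basal keratinocytes was thus lower in cFLIP KO epidermis by 0.66 relative to TNF KO, while Col1a1 was higher by 0.50. With the lowess trend subtracted, which raises bright genes, its difference was 0.10.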

How the data were processed

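The authors hybridised pooled epidermal RNA to Affymetrix Mouse Gene 2.0 ST arrays and deposited log2 values, made by RMA, which corrects the background and normalizes by quantiles, with probes grouped by ENTREZ gene through a custom CDF (version 22). RMA is named in the submitters' processing notes, with a version not given in the sources used here. RMA summarises probes by median polish, which can return equal values on 3 arrays, and whether it gave the ties was not tested. The methods' analysis of variance could not be run with 1 array per genotype. The number of arrays limits the precision.

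Of 24973 values per array, 24015 were named by the platform annotation and 559 by ENTREZ identifier in a RefSeq table, 399 stayed unnamed, and values of 1 symbol were averaged. Differences of log2 values and counts of genes past 2-fold were computed with Python 3.11.15, numpy 2.4.6, pandas 2.3.3, statsmodels 0.14.6 and matplotlib 3.10.9. Every collagen gene could be named, and of each other list the 4 furthest from 0 in each comparison with TNF KO, besides Cflar, Tnf, Actb and Col17a1. Dcn was named outside this rule, only as a gene shared by the fibroblast and partner lists. Members, lists and promoters were chosen with earlier results of these data known. Alternatives were Actb scaling, scaling by 8 of 10 reference genes (Gapdh and Ppia had no value), a lowess trend (share 0.3, 3 iterations), repeated quantile normalization, leaving out dim genes, thresholds of 1.5-fold and 3-fold, and the mean. Counts by sign and naming by the platform annotation alone were added after the data were seen. The steps were tested on simulated data. Repeated quantile normalization missed some changes when changed genes were drawn from all genes, and the requirement was then set on genes from log2 5 up. There all 3 procedures tested recovered nearly all of them in simulations without a trend by signal. With such a trend simulated, only lowess was held to the requirement, and the cFLIP KO array does have a trend by signal.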

Additional observations from a re-analysis of the deposited data

Results flagged for a closer look

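For 5 collagen genes the arrays of the cFLIP-deficient genotypes lay on opposite sides of the TNF KO array as deposited. This difference was not tested, since there is 1 array per genotype, and the share of all genes that did so was not counted. Col9a2 was at 0.98 in cFLIP KO minus TNF KO and at -0.08 in cFLIP KO/TNF KO minus TNF KO on the log2 scale. Col26a1 was at 0.48 and -0.08, and Col20a1 at 0.32 and -0.04, in the same order. Col12a1 was at -0.34 in cFLIP KO minus TNF KO and at 0.07 in cFLIP KO/TNF KO minus TNF KO, and Col6a3 was at -0.05 and 0.22. With the lowess trend subtracted, Col12a1 and Col6a3 lay above 0 in both comparisons, at 0.26 and 0.08 for Col12a1 and at 0.58 and 0.22 for Col6a3. With the reference genes set equal, Col12a1 was at -0.04 in both and Col6a3 at 0.25 and 0.10. With Actb set equal, 41 collagen genes lay above TNF KO in cFLIP KO epidermis. All 43 then lay below it in cFLIP KO/TNF KO epidermis, so the number on opposite sides depended on the scaling.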

How the results depend on the processing

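Scaling moved all genes together. The median of all genes lay at 0.30 in cFLIP KO minus TNF KO and at -0.12 in cFLIP KO/TNF KO minus TNF KO with the reference genes set equal, and at 0.04 and -0.52 with Actb set equal. The median of the collagen genes in cFLIP KO minus TNF KO, 0.17 as deposited, was 0.20 with Actb, 0.46 with the reference genes, 0.29 with the lowess trend subtracted, 0.35 after repeated quantile normalization and 0.24 as a mean. In cFLIP KO/TNF KO minus TNF KO, 0.00 as deposited, it was -0.52, -0.12, 0.00, -0.01 and 0.04 in the same order. In cFLIP KO minus cFLIP KO/TNF KO, 0.08 as deposited, it was 0.64, 0.50, 0.32, 0.29 and 0.20, and 0.12 without dim genes.

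The count of collagen genes 2-fold or more above TNF KO in cFLIP KO epidermis, 1 as deposited, was 2 with Actb, 5 with the reference genes, 2 with lowess, 2 after repeated quantile normalization, 5 at 1.5-fold and 0 at 3-fold. The shares of all genes were 4.26%, 8.16%, 3.9%, 4.23%, 10.7% and 1.14% in that order, against 11.6% for 5 collagen genes and 4.65% for 2. In cFLIP KO relative to cFLIP KO/TNF KO epidermis, 2 as deposited, it was 9, 4, 2, 1, 4 and 0, against 14.2%, 10.1%, 3.46%, 3.79%, 10% and 0.814% of all genes, where 9 is 20.9%. No collagen gene was lower by the threshold in any comparison under these settings, and none was higher by it in cFLIP KO/TNF KO relative to TNF KO epidermis. Over all genes, 950 were higher and 2261 lower by 2-fold or more in cFLIP KO relative to TNF KO epidermis, against 2006 and 1403 with the reference genes and 958 and 1216 with lowess.

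No paired analysis was possible because each genotype had 1 array. Uniform scalings cannot be decided between here, dim genes limit 12 of the 43 collagen genes, and pooling hides the spread between animals.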
